A study of Mus musculus with 75 samples.

Results

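The myeloid progenitors labelled pGM were compared with the progenitors labelled HPC in untreated wild-type (wt) mice of 8 weeks. The comparison takes every library whose title gives wt and pGM or wt and HPC in the untreated experiment. These are 4 wt pGM libraries and 4 wt HPC libraries, 8 of the 75 libraries of the series, and 12736 genes had enough reads to be tested. The series concerns the histone H3 lysine 4 methyltransferase gene Kmt2c in blood stem cells, and the measurement is RNA sequencing of sorted cells, as read counts per gene. The untreated experiment has 48 libraries, 4 for each of 3 genotypes in each of 4 populations labelled HSC, HPC, pGM and GMP. Besides the wt groups, the text uses het pGM and het HPC, which carry Kmt2c f/+ with Vav-Cre, and ko pGM and ko HPC, which carry Kmt2c f/f with Vav-Cre. The letter f stands for the floxed Kmt2c allele, which Cre recombinase can cut. The Vav promoter makes the Cre transgene active throughout the blood system. All of these mice were 8 weeks old and untreated, and the wt mice carry no Vav-Cre label. The sources used here do not give the gates of the sort. No label says that the 4 libraries of a group came from separate mice. The p-values therefore reflect only how far these libraries differ, and some of that spread may be technical.

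Blood cells arise from stem cells through progenitors that lose lineages step by step. Progenitors near the stem cell are marked in the mouse by the surface protein Sca-1 (gene Ly6a), and some of them already transcribe early lymphoid genes such as Dntt and Flt3. Myeloid progenitors lose Sca-1, raise the transcription factor genes Cebpa and Irf8 and begin to transcribe the proteases and peroxidase that later fill the primary granules of neutrophils and monocytes. Mast cell, basophil, erythroid and megakaryocyte fates depend instead on the GATA factors Gata1 and Gata2.

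The wt pGM libraries held 14471398 to 17830780 reads in mouse genes and the wt HPC libraries 14249733 to 16628920. Genes with at least 1 read numbered 16690 to 17834 over the 8 libraries. The mitochondrial share of reads was 0.44 to 1.48% in wt pGM and 1.4 to 1.68% in wt HPC. Some libraries stood apart in genes that mark other cells, and the source of these reads was not tested. The plasma cell gene Jchain had 0.415, 0.472, 1.79 and 5.23 CPM (counts scaled to library size) in wt pGM replicates 1 to 4, against 232, 219, 0.439 and 64.1 CPM in wt HPC replicates 1 to 4, and Igkc was high in the same 3 HPC libraries, at 729, 402 and 284 CPM. Neither was called, which means an adjusted p under 0.05 over all genes tested (adjusted p = 0.0567 and 0.0697). The neutrophil granule gene Ltf stood at 81.4 CPM in wt pGM 4 and 45.7 CPM in wt HPC 4, and at no more than 4.77 CPM in the other 6. The fibroblast collagen gene Col1a1 had 16.1 CPM in wt pGM 4 and at most 0.444 CPM in the other 7. The T cell gene Cd3e was at 0 in all 8, and the mature B cell genes Ms4a1 and Pax5 were below 1 CPM in each. The part of these reads in the results below was not tested beyond leaving each library out in turn.

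The markers fixed for the labels were mostly as the labels say. Ly6a, a gene that such sorts usually gate on and that is therefore given as a description, had 22.4, 43.3, 21.7 and 32.6 CPM in wt pGM, against 274, 309.5, 254 and 259.7 CPM in wt HPC. Kit, the receptor for stem cell factor, had 647, 539, 541 and 552 CPM in wt pGM, against 275, 416, 547 and 502 CPM in wt HPC, and was not called (adjusted p = 0.118), though it was without wt HPC 3 (log2 fold change 0.53, adjusted p = 0.0425). Cd34 lay in the ranges 1500.4 to 1839 CPM in wt pGM and 1805 to 2118 CPM in wt HPC, and it was not called (adjusted p = 0.0887). Fcgr3, which encodes an Fc receptor that marks GMP cells in the mouse, averaged 46.0 CPM in wt pGM and 8.51 CPM in wt HPC, and scaled over the 16 wt libraries it averaged 7.77 CPM in HSC, 8.07 in HPC, 44.5 in pGM and 739 in GMP. Slamf1, a marker of stem cells, stayed at or below 4.11 CPM in every wt pGM and wt HPC library. Flt3, a receptor of lymphoid-primed progenitors, had 363, 192, 253 and 145 CPM in wt pGM, against 313, 279, 430.5 and 412 CPM in wt HPC. The Flt3 libraries overlapped and the gene was not called (log2 fold change -0.59 ± 0.28 SE, adjusted p = 0.182). It was called without wt pGM 1, at a log2 fold change of -0.86 and an adjusted p of 0.00915. Of 14 genes that mark stem and progenitor cells in sorts, 5 rose and 3 fell in wt pGM, a description too, since such sorts may gate on any of them. Among them were Procr (-1.79 ± 0.20 on the log2 scale, adjusted p = 1.36e-05), Cd27 (-0.52 ± 0.11, adjusted p = 0.00278) and Cd48 (0.56 ± 0.13, adjusted p = 0.00541). The call of Cd48 was lost when the 16 wt libraries or all 48 libraries entered 1 fit.

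Over all genes, 2834 passed an adjusted p of 0.05 (Benjamini-Hochberg) in edgeR's quasi-likelihood test and count as called, which is 22.3% of those tested. Of these, 1311 (10.3%) were higher and 1523 (12%) lower in wt pGM. The larger changes were split unevenly. At least 2-fold changes numbered 303 higher and 709 lower genes, while at least 8-fold changes numbered 67 higher and 33 lower genes. The 4 wt pGM libraries did not overlap with the 4 wt HPC libraries in 3146 genes (24.7%). With all 48 libraries in 1 fit, which takes its spread also from other populations and genotypes, 1806 genes were called, 845 higher and 961 lower.

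**Figure D1:**
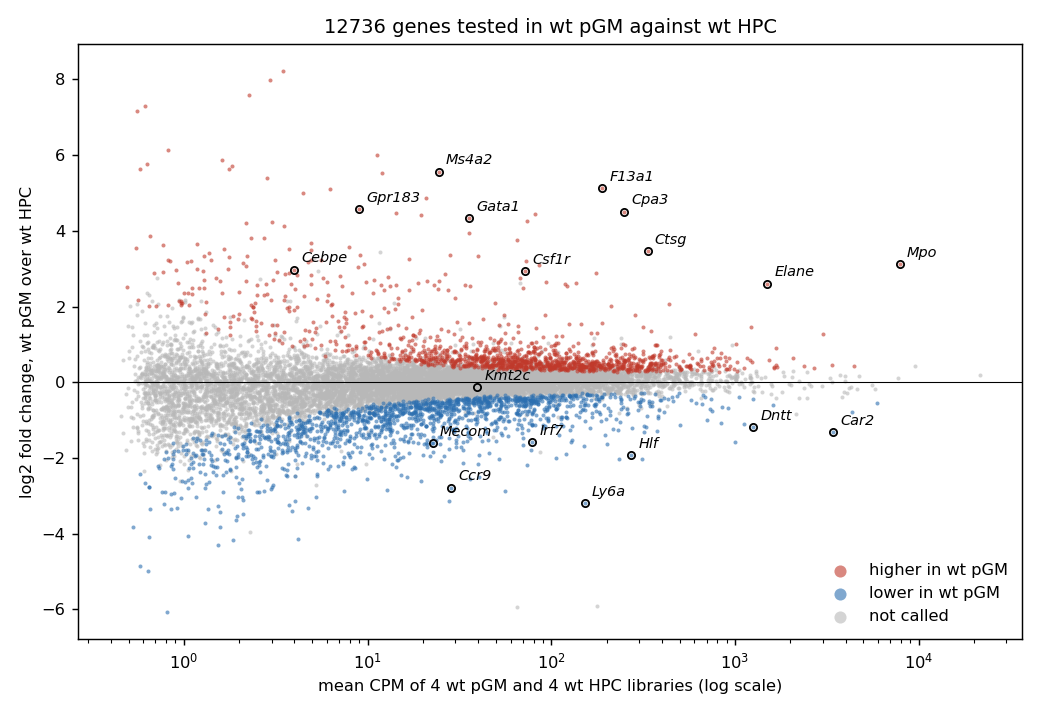
Each point is 1 of the 12736 genes tested, placed by its mean CPM over the 4 wt pGM and 4 wt HPC libraries (horizontal, log scale) and its log2 fold change of wt pGM over wt HPC (vertical). Red marks the 1311 genes called higher and blue the 1523 called lower in wt pGM, and named genes are circled. Mpo, Elane and Ctsg stand far above 0 at high levels, and Ly6a, Hlf, Dntt and Car2 below it.

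The primary granule genes gave the highest levels of any myeloid list. Mpo, which encodes myeloperoxidase, had 13136, 11846, 15111 and 16309.7 CPM in wt pGM, against 1699.8, 1585, 1957 and 1265 CPM in wt HPC. Every wt pGM library lay above every wt HPC library, and the log2 fold change was 3.12 ± 0.15 (SE, adjusted p = 1.15e-09). Elane, the gene of neutrophil elastase, had 2536, 2427, 2023 and 3319.9 CPM in wt pGM, against 446, 352, 399 and 496 CPM in wt HPC (log2 fold change 2.61 ± 0.15, adjusted p = 1e-08). The other serine proteases of these granules moved the same way without overlap of libraries. Ctsg, for cathepsin G, had 537, 518, 682 and 714 CPM in wt pGM, against 73.6, 44.5, 56.7 and 48.4 CPM in wt HPC (log2 fold change 3.46 ± 0.17, adjusted p = 3.25e-09). Prtn3, for proteinase 3, had 1677, 1682, 1981 and 1821 CPM in wt pGM, against 564, 671, 646 and 702 CPM in wt HPC (log2 fold change 1.47 ± 0.11, adjusted p = 1.1e-07). Prtn3 was already well expressed in wt HPC, where Ctsg was low. Ms4a3, a membrane protein gene of granulocyte and monocyte progenitors, averaged 236 ± 46.4 CPM in wt pGM and 38.2 ± 5.06 CPM in wt HPC (SD, n = 4 each), with a log2 fold change of 2.63 ± 0.15. Hk3, the hexokinase of myeloid cells, rose by 1.47 on the log2 scale. Of 26 granule genes tested, 17 rose, 0 fell (1 without wt pGM 4) and 9 were not called, with a median log2 fold change of 1.28, beside -0.02 over all genes tested. Of 15 late neutrophil genes tested, which are transcribed after this stage, 2 rose (13.3%) and 1 fell (6.7%). Of all genes 10.3% rose and 12% fell. Without wt HPC 4, the HPC library with the high Ltf reads, 5 late neutrophil genes rose. That fit still held wt pGM 4, whose Ltf reads were higher, at 81.4 CPM. The count was also 5 with the replicate block, 4 with limma voom and 1 with the 16 wt or all 48 libraries in 1 fit. Cxcr2, the chemokine receptor that neutrophils use to leave the marrow, was among the 2 and averaged 36.7 ± 9.24 CPM in wt pGM and 5.71 ± 1.14 CPM in wt HPC.

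The promoters of the 4 granule enzymes are shown because each holds the same letters. The 250 bases before the annotated start (RefSeq sequences, build GRCm38.p6, on the strand of the gene) each hold AGGAAGT, the ETS-type letters that the myeloid factor PU.1 can bind, in capitals. The regions are chr11:87793534-87793783 for Mpo and chr10:79886062-79886311 for Elane, chr10:79879417-79879666 for Prtn3, all on the plus strand, and chr14:56102575-56102824 on the minus strand for Ctsg.
Mpo: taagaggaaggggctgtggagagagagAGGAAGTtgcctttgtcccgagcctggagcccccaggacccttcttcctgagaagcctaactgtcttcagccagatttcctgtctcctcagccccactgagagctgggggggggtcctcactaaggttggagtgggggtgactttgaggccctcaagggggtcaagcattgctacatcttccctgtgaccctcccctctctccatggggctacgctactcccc
Elane: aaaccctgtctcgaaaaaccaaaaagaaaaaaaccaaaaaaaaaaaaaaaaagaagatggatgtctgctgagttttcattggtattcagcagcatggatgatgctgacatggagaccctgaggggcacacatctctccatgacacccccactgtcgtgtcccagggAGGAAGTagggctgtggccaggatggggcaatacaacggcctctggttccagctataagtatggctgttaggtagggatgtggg
Prtn3: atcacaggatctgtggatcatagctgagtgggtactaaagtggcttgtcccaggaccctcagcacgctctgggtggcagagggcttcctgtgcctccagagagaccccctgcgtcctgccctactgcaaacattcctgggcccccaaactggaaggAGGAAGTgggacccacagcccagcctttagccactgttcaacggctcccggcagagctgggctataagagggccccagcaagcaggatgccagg
Ctsg: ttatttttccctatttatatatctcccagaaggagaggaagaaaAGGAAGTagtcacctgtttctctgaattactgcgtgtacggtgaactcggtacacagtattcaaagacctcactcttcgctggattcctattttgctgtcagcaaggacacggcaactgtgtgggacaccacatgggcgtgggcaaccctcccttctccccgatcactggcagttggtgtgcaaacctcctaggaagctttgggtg
The match begins 223 bases before the start in Mpo, 84 in Elane, 94 in Prtn3 and 206 in Ctsg. AGGAAGT or its reverse complement occurred in 6 of 14 windows of called granule genes (42.9%, 13 of the 17 genes having a window), and in 2525 of all 32851 windows of this length (7.7%). TTGCNNAA, the C/EBP-type letters, occurred in 2 of the 14 windows (14.3%) and in 9.6% of all windows. AGATAA, the GATA-type letters, occurred in none of the 14 and in 9.99% of all windows. These are matches of letters and were not tested as binding sites. Spi1, the gene of PU.1 itself, had 18.4, 17.5, 23 and 17.3 CPM in wt pGM, against 18.4, 15.4, 14.1 and 13.9 CPM in wt HPC, overlapped between the groups and was not called (log2 fold change 0.30 ± 0.17, adjusted p = 0.226).

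Genes of monocytes and dendritic cells also rose. F13a1, the gene of coagulation factor XIII subunit A that monocytes express, had 401, 235, 471 and 366 CPM in wt pGM, against 9.47, 8.15, 10.4 and 14.3 CPM in wt HPC. No libraries overlapped, and the difference was 34.7-fold (log2 fold change 5.12 ± 0.25, adjusted p = 1.1e-07). Ly86, which encodes MD-1, the partner of the innate receptor RP105, had 123, 124, 161 and 149.9 CPM in wt pGM, against 10.4, 6.20, 5.84 and 6.77 CPM in wt HPC (log2 fold change 4.26 ± 0.18, adjusted p = 1.15e-09). Csf1r, the receptor for the monocyte growth factor M-CSF, had 143, 95.4, 135 and 136 CPM in wt pGM, against 10.6, 18.6, 21.8 and 15.9 CPM in wt HPC (log2 fold change 2.93 ± 0.20, adjusted p = 1.47e-07). wt pGM 2 was the lowest of its group in Csf1r and still stood above every wt HPC library. Ccr2, the chemokine receptor that brings monocytes out of the marrow, averaged 67.0 ± 16.3 CPM in wt pGM and 4.37 ± 1.26 CPM in wt HPC. Cx3cr1, the fractalkine receptor of monocytes, averaged 42.3 ± 7.16 CPM in wt pGM and 6.67 ± 1.08 CPM in wt HPC. Ms4a6c, a membrane protein gene of monocytes, averaged 203 CPM in wt pGM and 33.5 CPM in wt HPC. Of 29 monocyte and dendritic cell genes tested, 16 rose and 1 fell (2 without wt HPC 4), with a median log2 fold change of 1.17. Most genes of mature macrophages did not share this. Of 11 macrophage genes tested, 0 rose and 6 fell, among them C1qb, a complement gene of macrophages, at 4.00 ± 2.06 CPM in wt pGM and 11.8 ± 5.54 CPM in wt HPC, and Axl, a receptor tyrosine kinase gene (-1.07 ± 0.22 on the log2 scale). The count of 6 was 3 without wt pGM 1 and 0 with all 48 libraries in 1 fit. Adgre1, a surface receptor gene of macrophages, leaned the other way and was not called (log2 fold change 0.76, adjusted p = 0.0501). In place of 0, the count that rose was 1 with DESeq2, RLE scaling, the Y-linked covariate or the 16 wt libraries in 1 fit. It was also 1 without wt HPC 1 or without wt pGM 2.

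Among myeloid transcription factors more genes rose than fell. Irf8, which directs monocyte and dendritic cell development, had 379, 266, 374 and 214 CPM in wt pGM, against 23.4, 28.5, 59.4 and 56.3 CPM in wt HPC. The wt pGM libraries all lay above the wt HPC libraries (log2 fold change 2.88 ± 0.38, adjusted p = 0.00184). Cebpa, which is required to form granulocyte and monocyte progenitors, had 24.5, 32.9, 33.0 and 33.0 CPM in wt pGM, against 16.7, 16.4, 16.6 and 14.1 CPM in wt HPC (log2 fold change 0.95 ± 0.16, adjusted p = 0.000372). Its call was lost with all 48 libraries in 1 fit. Cebpe, which controls the secondary granules of neutrophils, was low in both groups, at 6.64, 4.88, 5.86 and 11.1 CPM in wt pGM, against 0.138, 0.791, 1.42 and 1.2 CPM in wt HPC, and was 7.87-fold higher in wt pGM (adjusted p = 0.000261). Zeb2, a repressor needed by monocytes and dendritic cells, rose by 1.03 on the log2 scale, and Myb, a factor of immature progenitors, rose by 0.45, a call lost with all 48 libraries in 1 fit. Runx1, needed to form blood stem cells, was not called (log2 fold change 0.26 ± 0.12, adjusted p = 0.143). Gfi1, which favours granulocytes over monocytes, had 8.62, 5.53, 4.93 and 9.29 CPM in wt pGM, against 16.7, 7.85, 9.61 and 20.4 CPM in wt HPC. Its libraries overlapped, and its call (log2 fold change -0.95 ± 0.31, adjusted p = 0.0374) ended when wt HPC 1, wt HPC 4, wt pGM 2 or wt pGM 3 was left out, or with the 16 wt or all 48 libraries in 1 fit, where the log2 fold changes ran from -0.92 to -0.68. In all, 9 of the 30 tested myeloid transcription factors rose (30.0%) and 4 fell (13.3%), beside 10.3% and 12% of all genes. The median log2 fold change was 0.10, and the share that fell was near that of all genes. Only 2 of these factors fell without wt HPC 4 or without wt pGM 3. With all 48 libraries in 1 fit 5 rose and 2 fell.

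Of 24 myeloid cytokine receptor genes tested, 7 rose (29.2%) and 3 fell (12.5%), beside 10.3% and 12% of all genes. With all 48 libraries in 1 fit 3 rose. Csf2rb, the shared signalling chain for GM-CSF, interleukin 3 and interleukin 5, averaged 106 ± 5.87 CPM in wt pGM and 57.8 ± 11.6 CPM in wt HPC (log2 fold change 0.88 ± 0.14, adjusted p = 0.000227). Il1rl1, the interleukin 33 receptor of mast cells and basophils, averaged 8.64 ± 1.09 CPM in wt pGM and 0.257 ± 0.197 CPM in wt HPC. Csf3r, the receptor for G-CSF, did not follow the granule genes. It had 133, 137, 104 and 135 CPM in wt pGM, against 99.3, 132, 138 and 98.3 CPM in wt HPC, and was not called (log2 fold change 0.12 ± 0.14, adjusted p = 0.571). Il21r, the interleukin 21 receptor, fell to 38.7 CPM in wt pGM, against 90.7 CPM in wt HPC. Il1r1, the receptor for interleukin 1, had 35.0, 25.4, 24.1 and 21.7 CPM in wt pGM, against 65.1, 55.5, 55.7 and 67.9 CPM in wt HPC, with no overlap (log2 fold change -1.2 ± 0.15, adjusted p = 3.58e-05).

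**Figure D2:**
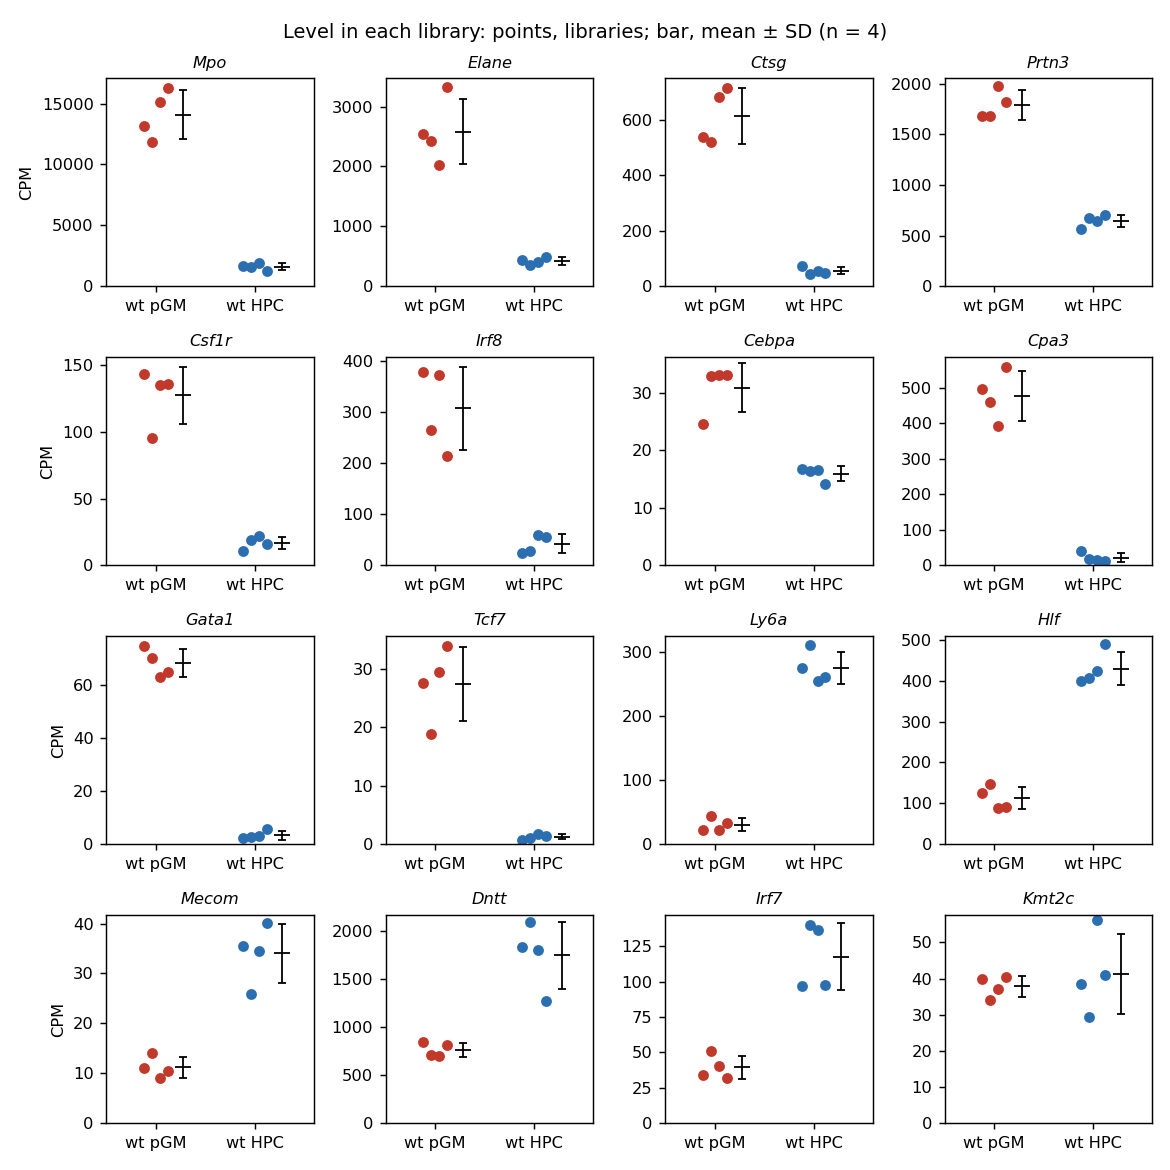
Level of 16 genes in CPM in each library, wt pGM (red) left of wt HPC (blue), with the mean and SD of the 4 libraries beside the points; every vertical axis starts at 0. All genes except Kmt2c have groups that do not overlap, with the 10 genes from Mpo to Tcf7 higher and Ly6a, Hlf, Mecom, Dntt and Irf7 lower in wt pGM.

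Mast cell and basophil genes showed some of the largest increases. Cpa3, the gene of mast cell carboxypeptidase A, had 497, 461, 391 and 558 CPM in wt pGM, against 39.2, 17.4, 14.6 and 12.8 CPM in wt HPC. The groups did not overlap, and wt HPC 1 was the highest of its group (log2 fold change 4.51 ± 0.41, adjusted p = 0.000274). Ms4a2, the beta chain of the high-affinity IgE receptor, had 51.9, 46.5, 44.2 and 48 CPM in wt pGM, against 2.69, 0.791, 0.177 and 0.479 CPM in wt HPC (log2 fold change 5.57 ± 0.55, adjusted p = 0.000214). Hdc, which makes histamine, averaged 121 ± 14.7 CPM in wt pGM and 9.03 ± 2.50 CPM in wt HPC. Alox5, which starts leukotriene synthesis, averaged 37.2 ± 1.79 CPM in wt pGM and 1.75 ± 1.44 CPM in wt HPC. Slc45a3, a transporter gene known in basophils, averaged 23.4 ± 4.66 CPM in wt pGM and 0.521 ± 0.548 CPM in wt HPC. Of 23 genes of mast cells, basophils and eosinophils tested, 9 rose and 5 fell. The genes that fell were the eosinophil genes Ear1 (log2 fold change -2.25), Ear6 (-2.17), Prg3 (-1.46) and Ccr3 (-1.29), and Clnk (-0.87). The eosinophil genes Epx (-2.17), Prg2 (-1.85) and Ear2 (-1.35) were lower too but not called. The same was true of Alox15 (-1.57) and Prss34 (-1.02) of this list. Csf2rb2 (0.45), Mitf (0.29), Hgf (0.23) and Srgn (0.16) leaned higher and were not called. Alox5 and Slc45a3, given above, are not in the list. The 5 lower calls varied with the libraries, with 1 left without wt HPC 2 or without wt pGM 3 and 2 left without wt pGM 1 or without wt pGM 2. AGATAA or its reverse complement occurred in 6 of the 11 promoter windows of the 9 called genes (54.5%), against 9.99% of all windows, and AGGAAGT occurred in none of the 11.

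Erythroid and megakaryocyte genes split. Gata1, the master regulator of erythroid, mast and megakaryocyte cells, had 74.8, 70.3, 62.9 and 65 CPM in wt pGM, against 2.14, 2.55, 2.89 and 5.81 CPM in wt HPC, a 20.2-fold difference with no overlap (log2 fold change 4.34 ± 0.25, adjusted p = 2.55e-08). Its target Klf1, the erythroid Krüppel-like factor, was lower in level, at 6.61 ± 2.94 CPM in wt pGM and 0.885 ± 0.556 CPM in wt HPC. Car1, a carbonic anhydrase of early erythroid progenitors, had 143, 218, 117 and 143 CPM in wt pGM, against 5.94, 1.76, 3.77 and 16.9 CPM in wt HPC. Mfsd2b, the sphingosine-1-phosphate exporter of red cells and platelets, averaged 40.1 ± 3.73 CPM in wt pGM and 1.36 ± 0.482 CPM in wt HPC, and Tfrc, the transferrin receptor, averaged 20.1 ± 4.17 CPM in wt pGM and 5.59 ± 2.38 CPM in wt HPC. Atp1b2, a sodium pump subunit, averaged 22.2 ± 9.57 CPM in wt pGM and 0.336 ± 0.419 CPM in wt HPC. Car2, the carbonic anhydrase that is abundant from the stem cell on, went the other way, with 1988, 2407, 1507 and 1940.3 CPM in wt pGM, against 5452, 5360.0, 4143 and 4525 CPM in wt HPC (log2 fold change -1.31 ± 0.14, adjusted p = 6.33e-06). Of 24 erythroid genes tested, 8 rose (33.3%) and 2 fell (8.3%), beside 10.3% and 12% of all genes. The 2 became 1 when wt HPC 1, wt HPC 2, wt HPC 4, wt pGM 1, wt pGM 2 or wt pGM 3 was left out. Late red cell genes were low. Summed globin reads were 20.9 to 90.6 CPM in wt pGM and 40.6 to 164.9 CPM in wt HPC. Of 20 megakaryocyte and platelet genes tested, 4 rose and 5 fell. Itga2b, the integrin CD41, had 82.9, 80.6, 79.9 and 77.8 CPM in wt pGM, against 12.6, 19.7, 19.0 and 24 CPM in wt HPC, and its partner Itgb3 rose by 1.82 on the log2 scale. Mmrn1, a platelet protein gene that stem cells also express, fell to 9.85 ± 3.78 CPM in wt pGM, against 32.2 ± 12.7 CPM in wt HPC, and Gp9, a subunit of the platelet von Willebrand factor receptor, fell to 19.9 ± 3.28 CPM in wt pGM, against 39.6 ± 5.08 CPM in wt HPC. Pf4, the platelet chemokine, was not called, at 5.64 ± 2.08 CPM in wt pGM and 10.2 ± 4.78 CPM in wt HPC, but it was without wt HPC 3 (log2 fold change -1.08, adjusted p = 0.0245). Gata2, which acts before Gata1 and in mast cells, was present in both groups and rose. It averaged 94.4 ± 7.64 CPM in wt pGM and 54.2 ± 7.43 CPM in wt HPC (log2 fold change 0.80 ± 0.12, adjusted p = 0.000214), and Gfi1b, a repressor of erythroid and megakaryocyte cells, averaged 109 ± 11.0 CPM in wt pGM and 58.4 ± 8.38 CPM in wt HPC.

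Many stem cell factors were lower in wt pGM, where most stayed detectable. Hlf, a transcription factor of stem and multipotent cells, had 124, 147, 89.6 and 91.1 CPM in wt pGM, against 399.6, 408, 424 and 489 CPM in wt HPC. The groups did not overlap (log2 fold change -1.93 ± 0.15, adjusted p = 3.07e-07). Mecom, a zinc finger factor needed by stem cells, had 11.1, 14, 8.93 and 10.5 CPM in wt pGM, against 35.6, 26.0, 34.4 and 40.2 CPM in wt HPC (log2 fold change -1.61 ± 0.18, adjusted p = 1.35e-05). The homeobox gene Hoxa9 averaged 21.1 ± 4.08 CPM in wt pGM and 48.6 ± 2.63 CPM in wt HPC, and its cofactor Meis1 averaged 287 ± 33.2 CPM in wt pGM and 479 ± 63.5 CPM in wt HPC. Mycn, a MYC family member of stem cells, fell to 10.3 ± 2.93 CPM in wt pGM, against 31.4 ± 10.8 CPM in wt HPC, and Cdkn1c, the cell cycle inhibitor p57 of quiescent stem cells, was low at 2.42 ± 0.492 CPM in wt pGM and 6.25 ± 1.38 CPM in wt HPC. Nkx2-3, a homeobox gene, fell by 2.14 on the log2 scale. Of 33 stem cell factors tested, 14 fell and 1 rose (2 without wt HPC 4), with a median log2 fold change of -0.68. Eng, the TGF-beta coreceptor endoglin, was not called (37.2 to 48.8 CPM in wt pGM and 34.6 to 63.1 CPM in wt HPC).

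Several early lymphoid genes were lower in wt pGM, and others were higher or not called. Dntt, the terminal transferase of lymphoid progenitors, had 839, 706, 698 and 811 CPM in wt pGM, against 1830.4, 2095, 1797 and 1265 CPM in wt HPC. The lowest wt HPC library, wt HPC 4, stayed above the highest wt pGM library (log2 fold change -1.19 ± 0.14, adjusted p = 1.38e-05). Ccr9, the thymus-homing chemokine receptor, had 14.5, 8.09, 2.55 and 3.94 CPM in wt pGM, against 71.0, 52.7, 37.9 and 37.7 CPM in wt HPC (log2 fold change -2.79 ± 0.55, adjusted p = 0.0109). Ccr7, which guides cells to lymph nodes and thymus, averaged 6.32 ± 2.67 CPM in wt pGM and 25 ± 4.02 CPM in wt HPC. Lax1, an adaptor of lymphocyte signalling, averaged 20.5 ± 5.77 CPM in wt pGM and 83.9 ± 5.93 CPM in wt HPC, and Bcl11a, a factor needed for B cells, averaged 77.1 ± 4.30 CPM in wt pGM and 150.1 ± 14 CPM in wt HPC. Other lymphoid genes rose. Gpr183, an oxysterol receptor of B cells and dendritic cells, averaged 17.3 ± 2.79 CPM in wt pGM and 0.728 ± 0.315 CPM in wt HPC (log2 fold change 4.58 ± 0.29, adjusted p = 2.85e-08). Il7r, the interleukin 7 receptor, was at 11.9, 12.6, 14.2 and 9.42 CPM in wt pGM, against 8.71, 14.2, 17.6 and 10.2 CPM in wt HPC, and Ikzf1, the lymphoid factor Ikaros, lay at 167 to 209.6 CPM in wt pGM and 166 to 222 CPM in wt HPC. Neither was called (adjusted p = 0.854 for Il7r and 0.632 for Ikzf1). Of 33 lymphoid-primed genes tested, 7 rose (among them Gpr183, Dach1 and the B lineage genes Ebf1, Ikzf3, Vpreb1 and Cd79a) and 10 fell, with a median of -0.21. Ikzf3 was near the floor, at 1.12 ± 0.202 CPM in wt pGM and 0 CPM in every wt HPC library. The calls of Ebf1 (log2 fold change 1.36), Vpreb1 (1.09) and Cd79a (1.13) were near the threshold, at adjusted p of 0.0317, 0.0448 and 0.0308. Each call ended without wt pGM 1, wt pGM 2 or wt pGM 3, at adjusted p of 0.0506 to 0.133. The calls also ended for Ebf1 without wt HPC 2 or wt HPC 4, for Vpreb1 without wt HPC 1, wt HPC 3 or wt HPC 4 and for Cd79a without wt HPC 3, at adjusted p of 0.0712 to 0.109. In these fits the log2 fold changes stayed at 0.83 to 1.41. The same calls ended with the 16 wt or all 48 libraries in 1 fit, and that of Ebf1 with limma voom (adjusted p = 0.0777). The 7 became 4 without wt pGM 1, without wt pGM 2 or without wt pGM 3, and with all 48 libraries in 1 fit 4 rose and 5 fell. Ighm, the immunoglobulin mu gene, fell to 701 ± 55.4 CPM in wt pGM, against 1129.6 ± 332 CPM in wt HPC, a call lost with the 16 wt or all 48 libraries in 1 fit. Its highest libraries, wt HPC 1 and wt HPC 2 at 1501 and 1285 CPM, were also the highest in Jchain, and this link was not tested.

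T and NK lineage genes also changed in both directions. Tcf7, which encodes TCF-1, a T lineage and innate lymphoid factor, had 27.5, 18.9, 29.4 and 33.9 CPM in wt pGM, against 0.760, 0.973, 1.71 and 1.44 CPM in wt HPC, with no overlap (log2 fold change 4.47 ± 0.28, adjusted p = 1.73e-08). Gata3, the T helper and stem cell factor, fell to 17.9 ± 4.42 CPM in wt pGM, against 36.7 ± 5.13 CPM in wt HPC, and Lck, the T cell kinase, fell to 66.8 ± 8.48 CPM in wt pGM, against 192 ± 34.3 CPM in wt HPC. Tox, a factor of T and innate lymphoid development, fell by 1.22 on the log2 scale. Of 18 tested, 4 rose and 8 fell, with a median of -0.77, and the 4 became 2 without wt HPC 4 or without wt pGM 4. Notch1, the receptor that starts T cell fate, had 62.4, 42.5, 49.4 and 61.6 CPM in wt pGM, against 66.5, 63.0, 95.9 and 66.8 CPM in wt HPC and was not called (adjusted p = 0.0585), though limma voom did so (adjusted p = 0.0483).

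**Figure D3:**
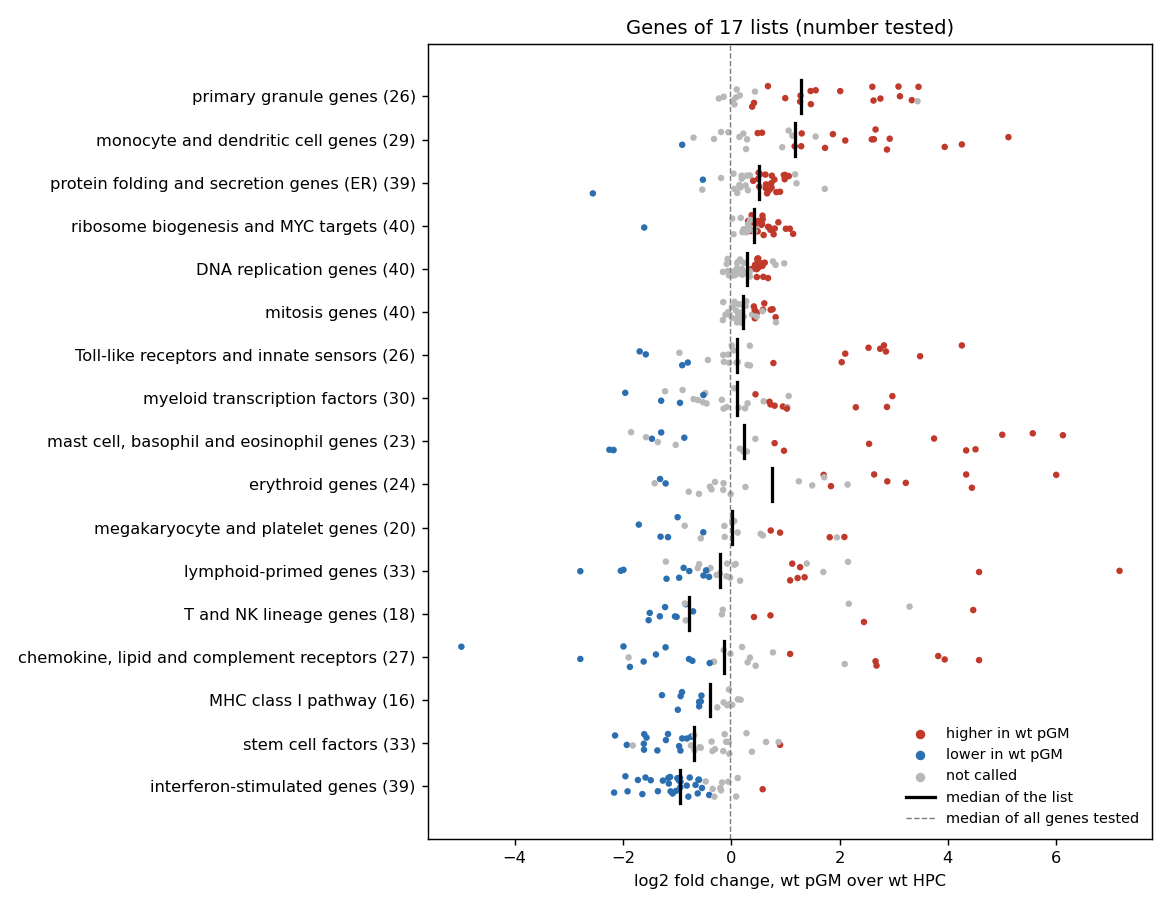
Each point is a gene of 1 of 17 lists, placed by its log2 fold change of wt pGM over wt HPC; red genes were called higher, blue genes lower and grey genes not called. The black bar is the median of the list, from 1.28 for primary granule genes at the top to -0.94 for interferon-stimulated genes at the bottom, and the dashed line is the median of all genes tested, -0.02.

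Interferon-stimulated genes were mostly lower in wt pGM. Of 39 tested, 29 fell and 1 rose (2 without wt HPC 3), with a median log2 fold change of -0.94, and 26 to 28 fell when 1 library was left out in turn. Irf7, the factor that amplifies interferon transcription, had 34.1, 50.6, 40.6 and 31.9 CPM in wt pGM, against 97.0, 140.1, 137 and 97.3 CPM in wt HPC. The groups did not overlap (log2 fold change -1.58 ± 0.17, adjusted p = 6.95e-06). Iigp1, an immunity-related GTPase, had 12.6, 22.8, 12.3 and 10.4 CPM in wt pGM, against 68.5, 69.5, 69.8 and 52.4 CPM in wt HPC (log2 fold change -2.16 ± 0.21, adjusted p = 6.33e-06). Rtp4, a receptor transporter gene induced by interferon, had 76.4, 124, 88.9 and 101 CPM in wt pGM, against 305, 375, 283 and 253 CPM in wt HPC (log2 fold change -1.64 ± 0.15, adjusted p = 1.93e-06). Ifi44 averaged 16.9 ± 2.66 CPM in wt pGM and 63.8 ± 15.7 CPM in wt HPC. The gene that rose was Gbp3, a guanylate-binding protein gene, at 69.5 ± 8.22 CPM in wt pGM and 46.4 ± 6.27 CPM in wt HPC (log2 fold change 0.58 ± 0.13, adjusted p = 0.00496). Genes of the MHC class I pathway fell too. H2-K1, a classical class I heavy chain, had 1280.1, 1365, 1295 and 1179 CPM in wt pGM, against 1855, 1913, 1942 and 2003 CPM in wt HPC (log2 fold change -0.59 ± 0.09, adjusted p = 0.000309), and H2-Q7, whose reads may be shared with close paralogs, fell by 0.99 on the log2 scale. Of 16 genes of the class I pathway 8 fell and 0 rose. Of 15 class II and antigen processing genes 3 fell and 0 rose, among them H2-Ob, a chain of the peptide editor DO (156 ± 10.9 CPM in wt pGM and 320.2 ± 52.0 CPM in wt HPC), and Cd86, the costimulator (5.59 ± 1.2 CPM in wt pGM and 23.2 ± 3.78 CPM in wt HPC).

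Promoters of 3 interferon-stimulated genes that fell are shown with 2 copies of GAAA that have any 2 bases between them, the core of the interferon response element, in capitals. They are the called genes with the smallest adjusted p whose window holds these letters, and Isg15, a ubiquitin-like protein, is the best known of them. Their log2 fold changes were -1.49 ± 0.17 (adjusted p = 1.34e-05) for Ddx60, -1.26 ± 0.16 (adjusted p = 2.98e-05) for Isg15 and -1.15 ± 0.18 (adjusted p = 0.000237) for Oas3, an oligoadenylate synthetase. The regions are chr8:61927837-61928086 for Ddx60 on the plus strand, chr4:156200819-156201068 for Isg15 and chr5:120777660-120777909 for Oas3, both on the minus strand.
Ddx60: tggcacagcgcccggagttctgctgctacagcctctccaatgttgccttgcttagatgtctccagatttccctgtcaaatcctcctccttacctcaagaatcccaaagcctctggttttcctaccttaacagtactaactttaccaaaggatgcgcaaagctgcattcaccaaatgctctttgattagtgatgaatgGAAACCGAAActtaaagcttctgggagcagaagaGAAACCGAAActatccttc
Isg15: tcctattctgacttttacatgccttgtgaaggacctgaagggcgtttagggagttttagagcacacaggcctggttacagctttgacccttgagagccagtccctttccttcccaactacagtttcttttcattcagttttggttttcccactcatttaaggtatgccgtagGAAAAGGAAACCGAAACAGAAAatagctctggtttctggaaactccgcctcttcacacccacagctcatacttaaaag
Oas3: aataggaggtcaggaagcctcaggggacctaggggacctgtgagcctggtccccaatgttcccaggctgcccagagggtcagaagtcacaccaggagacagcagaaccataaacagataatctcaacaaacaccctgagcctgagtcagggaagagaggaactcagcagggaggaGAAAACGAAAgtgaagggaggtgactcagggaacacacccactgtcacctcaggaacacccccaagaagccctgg
The letters occur at 2 places in Ddx60, at 3 overlapping places in Isg15 and at 1 in Oas3. The match nearest to the start begins 19 bases before it in Ddx60, 66 in Isg15 and 75 in Oas3. Over both strands they were in 10 of 24 windows of interferon-stimulated genes that fell (41.7%, 20 of the 29 genes having a window) and in 978 of all 32851 windows (3.0%). AGGAAGT was in none of these 24 windows, and the interferon response letters were in none of the 14 windows of granule genes.

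Genes of growth and protein synthesis rose by smaller amounts. Of 40 genes of ribosome biogenesis and MYC targets, 24 rose and 1 fell, with a median log2 fold change of 0.43. Srm, the spermidine synthase, averaged 71.7 ± 6.76 CPM in wt pGM and 33.9 ± 3.46 CPM in wt HPC, Nolc1, a nucleolar phosphoprotein, averaged 227 ± 46.7 CPM in wt pGM and 113 ± 16.5 CPM in wt HPC, and Dkc1, the pseudouridine synthase dyskerin, averaged 439 ± 43.7 CPM in wt pGM and 270.3 ± 29.5 CPM in wt HPC. The 1 that fell was Mycn, described above. Of 39 genes for protein folding and secretion in the endoplasmic reticulum, 20 rose and 2 fell, with a median of 0.52. Calr, the chaperone calreticulin, had 1337, 1234, 1416 and 1430.3 CPM in wt pGM, against 681, 763, 674 and 595 CPM in wt HPC (log2 fold change 1.00 ± 0.10, adjusted p = 5.87e-06). Rpn1, a subunit that glycosylates new proteins, rose by 0.99, Hsp90b1, a chaperone, by 0.97 and P4hb, a protein disulfide isomerase, by 0.80 on the log2 scale. Trib3, a pseudokinase induced by stress, was 1 of the 2 that fell, to 2.87 ± 2.35 CPM in wt pGM, against 16.9 ± 3.25 CPM in wt HPC. Cytosolic ribosomal protein genes did not follow, with 1 of 44 called in each direction and a median of -0.06. The 1 higher call ended without wt HPC 3, wt pGM 1, wt pGM 3 or wt pGM 4, while 5 were lower without wt HPC 3 and 0 without any other single library.

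Some cell cycle genes rose by small amounts. Of 40 DNA replication genes 15 rose and 0 fell, with a median of 0.29, among them the helicase subunits Mcm2 (0.62 ± 0.12 on the log2 scale, adjusted p = 0.00124) and Mcm3 (0.57 ± 0.11, adjusted p = 0.00105). Only 3 rose with all 48 libraries in 1 fit, where Mcm3 lost its call. Of 40 mitosis genes 9 rose and 0 fell, with a median of 0.21, Kif20a, a kinesin of cell division, among them (0.82 ± 0.15, adjusted p = 0.0011). That count was 4 without wt HPC 2 or without wt pGM 3, 5 without wt HPC 4 or without wt pGM 4, and 0 with all 48 libraries in 1 fit. Cdk6, a cyclin-dependent kinase of blood progenitors, was clearer, with 2468, 2506, 1979 and 1792 CPM in wt pGM, against 1047, 1282, 1429.9 and 940.1 CPM in wt HPC (log2 fold change 0.90 ± 0.14, adjusted p = 0.000316). E2f8, a repressor of the E2F family, averaged 51.1 ± 7.42 CPM in wt pGM and 22.7 ± 3.18 CPM in wt HPC, and Cdkn1a, the inhibitor p21, averaged 33.5 ± 5.30 CPM in wt pGM and 14.5 ± 4.01 CPM in wt HPC. Of 24 cyclins, cyclin-dependent kinases and inhibitors 4 rose (16.7%) and 3 fell (12.5%), beside 10.3% and 12% of all genes.

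Of 25 glycolysis genes 10 rose and 5 fell. The lactate dehydrogenase subunits went opposite ways. Ldha averaged 1418 ± 85.8 CPM in wt pGM and 909 ± 112 CPM in wt HPC (log2 fold change 0.64 ± 0.11, adjusted p = 0.000477), and Ldhb averaged 64.4 ± 10.8 CPM in wt pGM and 192 ± 28.2 CPM in wt HPC (log2 fold change -1.57 ± 0.14, adjusted p = 8.96e-07). Slc2a3, a glucose transporter, fell to 62.6 ± 6.80 CPM in wt pGM, against 128 ± 14.8 CPM in wt HPC. The 5 that fell became 3 without wt HPC 3 or without wt pGM 3. Of 44 oxidative phosphorylation genes 4 rose (9.1%, near the 10.3% of all genes) and 0 fell, Uqcrc1, a core subunit of complex III, among them (log2 fold change 0.39 ± 0.10, adjusted p = 0.00791). That count was unstable, at 8 with DESeq2 or RLE scaling, 13 without wt HPC 1, 2 without wt HPC 2 or without wt HPC 3, and 1 without wt pGM 3 or without wt pGM 4. Of 25 cholesterol synthesis genes 1 rose (4%) and 3 fell (12%), beside 10.3% and 12% of all genes.

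Among receptors of the innate and migratory kind, genes were called in both directions. Of 26 Toll-like receptors and innate sensors 9 rose (34.6%) and 4 fell (15.4%), beside 10.3% and 12% of all genes. Card9, the adaptor of fungal sensing, averaged 22.5 ± 3.24 CPM in wt pGM and 3.88 ± 1.8 CPM in wt HPC, and Trem3, a triggering receptor of myeloid cells in the mouse, averaged 46.3 ± 9.13 CPM in wt pGM and 6.39 ± 2.07 CPM in wt HPC. Tlr7, the sensor of single-stranded RNA, fell to 5.36 ± 2.32 CPM in wt pGM, against 17.3 ± 3.02 CPM in wt HPC. Of 27 chemokine, lipid and complement receptor genes 6 rose (22.2%) and 10 fell (37.0%). Ccr2, Cx3cr1, Cxcr2 and Gpr183 were among those that rose and Ccr7 and Ccr9 among those that fell. Of 29 integrins, selectins and selectin ligand genes 8 rose and 8 fell, 27.6% each way. Of 25 Notch, Wnt and TGF-beta pathway genes 3 rose and 3 fell, 12% each way, near the shares of all genes. Of 19 immediate early genes 6 fell and 1 rose, which ended without wt HPC 1, wt pGM 1 or wt pGM 3, while 2 rose without wt HPC 4. Klf6, Zfp36 and Btg2 fell by 1.12, 0.87 and 0.92 on the log2 scale. Of 5 stroma and endothelium genes tested, Pdgfrb, a platelet-derived growth factor receptor, rose to 91.6 ± 6.77 CPM in wt pGM, against 43.7 ± 9.65 CPM in wt HPC, and Emcn, an endothelial sialomucin that stem cells also express, fell to 16.7 ± 1.69 CPM in wt pGM, against 49.6 ± 3.71 CPM in wt HPC. Their level was not highest in wt pGM 4, the library with Col1a1 reads.

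Among genes with at least 20 CPM in wt HPC and no overlap, the 15 largest decreases included, besides Ly6a, Ccr9 and Iigp1, genes of varied function. Wfdc18, which encodes a secreted protease inhibitor-like protein and has a close paralog in Wfdc17, had 7.13, 7.44, 3.59 and 4.68 CPM in wt pGM, against 63.5, 60.0, 35.0 and 41.9 CPM in wt HPC (log2 fold change -3.13 ± 0.25, adjusted p = 9.02e-07). Ddx4, an RNA helicase best known from germ cells, had 15.5, 14.9, 12.2 and 11.1 CPM in wt pGM, against 118, 101, 91.1 and 86.9 CPM in wt HPC, with no overlap (log2 fold change -2.89 ± 0.15, adjusted p = 3.25e-09). Gem, a small GTPase, and Tnip3, an inhibitor of NF-kappaB signalling, fell by 2.56 and 2.50 on the log2 scale. The chemokine genes Ccl3 and Ccl4, close paralogs that may share reads, averaged 9.53 ± 1.69 and 12.3 ± 1.43 CPM in wt pGM, against 40.4 ± 7.61 and 53.6 ± 11.5 CPM in wt HPC. Sema3d, a secreted semaphorin, averaged 4.93 ± 2.08 CPM in wt pGM and 27.9 ± 3.40 CPM in wt HPC. Nfatc2, a calcium-regulated transcription factor, and Igf2r, the mannose 6-phosphate receptor, fell by 2.44 and 2.24 on the log2 scale. Zcchc18, Myl10, a myosin light chain gene, and Fah, an enzyme of tyrosine breakdown, fell by 2.61, 2.18 and 2.17. Rab44, a large Rab GTPase of granulocytes and mast cells, was among the largest increases, at 51.2 ± 4.87 CPM in wt pGM and 4.96 ± 0.595 CPM in wt HPC.

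The other wt populations place these levels. CPM scaled over the 16 wt libraries are given as means of 4 and are not tested, since the wt HPC and wt pGM libraries are those compared above. Mpo averaged 487 CPM in HSC, 1545 in HPC, 13646 in pGM and 82448 in GMP, and Elane 336 CPM in HSC, 401 in HPC, 2490.2 in pGM and 54496 in GMP. For these enzymes wt pGM stood well above HPC and far below GMP. Csf1r averaged 3.07 CPM in HSC, 15.9 in HPC, 123 in pGM and 206 in GMP, and Irf8 11.8 CPM in HSC, 39.8 in HPC, 298 in pGM and 321 in GMP. The mean of Irf8 in wt pGM lay within the spread of GMP, whose libraries ran from 264 to 362 CPM, while Cebpe averaged 1.77 CPM in HSC, 0.840 in HPC, 6.88 in pGM and 83.0 in GMP. Other genes had their highest mean in wt pGM. Gata1 averaged 23.3 CPM in HSC, 3.17 in HPC, 66.0 in pGM and 9.51 in GMP, Car1 22.1 CPM in HSC, 6.72 in HPC, 149.9 in pGM and 6.07 in GMP and Mfsd2b 11.5 CPM in HSC, 1.29 in HPC, 38.8 in pGM and 1.13 in GMP. Car1 varied widely between libraries, from 0.748 to 82.7 CPM in HSC and from 1.74 to 18.4 CPM in GMP. Tcf7 averaged 0.281 CPM in HSC, 1.16 in HPC, 26.5 in pGM and 0.389 in GMP, and Cpa3 4.34 CPM in HSC, 19.9 in HPC, 461 in pGM and 236 in GMP. The stem cell factors Hlf and Mecom had lower means at each step from HSC to GMP. Hlf averaged 692 CPM in HSC, 408 in HPC, 109 in pGM and 14.3 in GMP, and Mecom 135 CPM in HSC, 32.3 in HPC, 10.7 in pGM and 1.87 in GMP. Hoxa9 and Gfi1b did not follow this order, with Hoxa9 averaging 36.7 CPM in HSC, 46.1 in HPC, 20.4 in pGM and 8.58 in GMP and Gfi1b 202 CPM in HSC, 55.5 in HPC, 106 in pGM and 5.05 in GMP. A further set had its highest mean in HPC. Dntt averaged 3.10 CPM in HSC, 1659 in HPC, 738 in pGM and 4.53 in GMP, Ddx4 4.93 CPM in HSC, 94.2 in HPC, 13 in pGM and 0.166 in GMP and Ccl3 3.84 CPM in HSC, 38.3 in HPC, 9.22 in pGM and 0.389 in GMP. Itga2b averaged 72.6 CPM in HSC, 17.9 in HPC, 77.7 in pGM and 19.0 in GMP, so that HSC and pGM were close and HPC and GMP were both low.

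**Figure D4:**
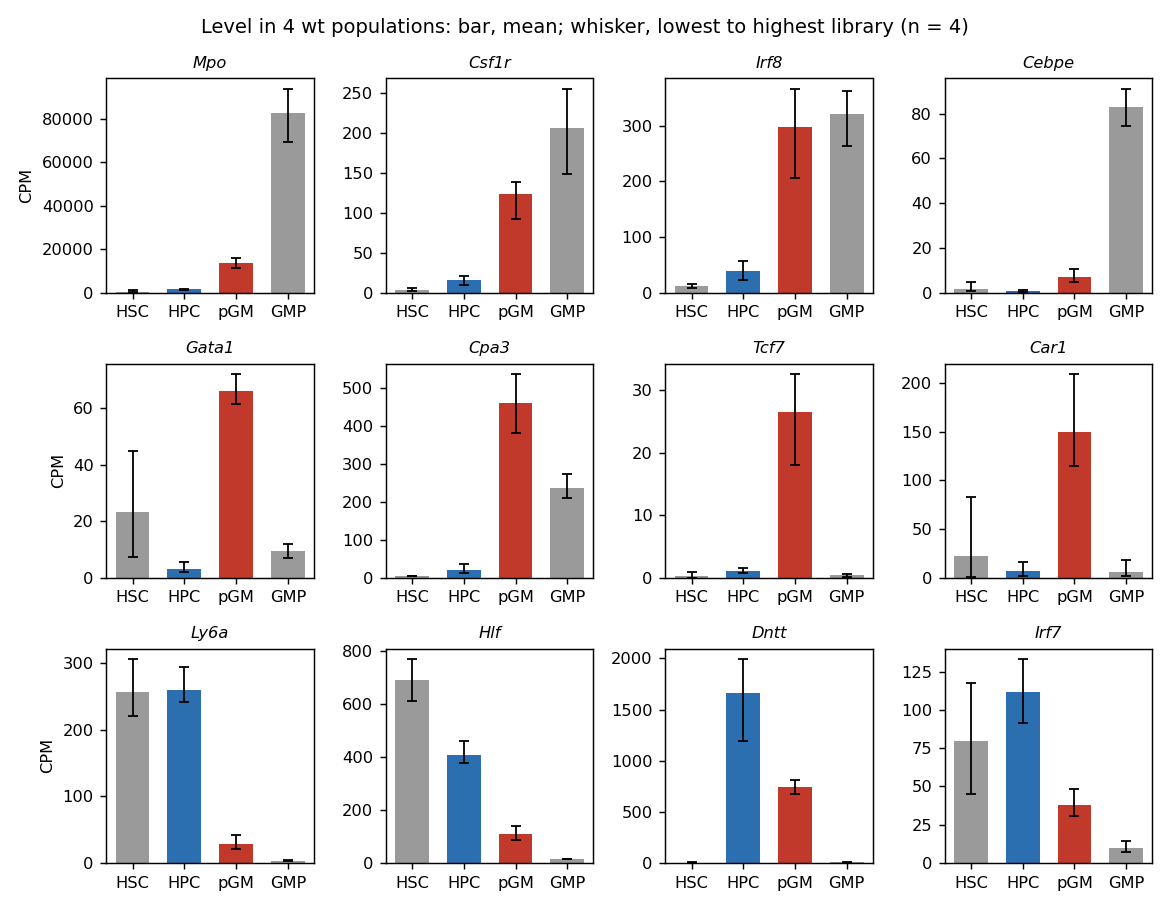
Mean CPM of 12 genes in wt HSC, HPC (blue), pGM (red) and GMP, each with a whisker from the lowest to the highest of 4 libraries and an axis from 0. Mpo and Cebpe have their tallest bar in GMP, Gata1, Cpa3, Tcf7 and Car1 in pGM, Dntt in HPC and Hlf in HSC.

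The same contrast was read in 16 libraries that did not enter it, those of het and ko mice. In het mice 1490 of 12666 genes were called without a block (11.8%), 601 higher (4.74%) and 889 lower (7.02%) in het pGM. With the replicate number as a block, a pairing that no label gives, 1881 were called, 828 higher and 1053 lower. Of these, 625 of the higher (75.5%) and 686 of the lower (65.1%) were shared with the wt calls. In ko mice 1947 of 12717 were called (15.3%), 900 higher (7.08%) and 1047 lower (8.23%) in ko pGM. In the fits without a block, 481 of the genes called higher in wt pGM were also called higher in het pGM. They were 80.0% of the het calls and 36.7% of the wt calls. In ko pGM 670 were shared, 74.4% of the ko calls and 51.1% of the wt calls. Of the genes called lower in wt pGM, 634 were shared with het (71.3% of the het calls and 41.6% of the wt calls) and 775 with ko (74.0% of the ko calls and 50.9% of the wt calls). The direction was the same for 94.0% of the higher and 97.7% of the lower genes in het, and for 97.4% of the higher and 97.9% of the lower genes in ko. Racgap1, named after its values were seen, was the 1 gene called in opposite directions, at a log2 fold change of -0.75 in het (adjusted p = 0.0333) and 0.68 in wt (adjusted p = 0.0207). Its wt call ended without wt HPC 1, wt HPC 2, wt pGM 1 or wt pGM 3, at log2 fold changes of 0.53 to 0.61. The het count fell to 931, 839 and 731 without het pGM 2, het pGM 3 and het pGM 4 in turn, and DESeq2 called 2255 and limma voom 2846. The ko count was 1267 without ko pGM 3 and 2945 with limma voom.

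Mpo averaged 14688 ± 3630.2 CPM in het pGM and 1588 ± 583 CPM in het HPC, and 15733 ± 694 CPM in ko pGM and 2198 ± 419 CPM in ko HPC. Its log2 fold changes of 3.21 in het and 2.84 in ko stand beside 3.12 in wt. Gata1 had log2 fold changes of 4.59 in het and 3.67 in ko, Cpa3 4.16 and 2.99, and Hlf -2.04 and -2.01, all called. Irf7 fell by 1.46 in het and 1.85 in ko on the log2 scale, and Dntt by 1.29 and 2.17. Cebpa did not pass without a block, at 0.72 in het (adjusted p = 0.193) and 0.14 in ko (adjusted p = 0.821). With the replicate block it passed in het, at 0.91 (adjusted p = 0.0489). Flt3, not called in wt, was called in both, at -2.0 in het (adjusted p = 0.000509) and -1.30 in ko (adjusted p = 0.0249).

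A test of the difference between genotypes found 1 of 13932 genes for ko against wt (0.00718%), where 445 (3.19%) had an unadjusted p under 0.05 and DESeq2 called 18. For het against wt it found 0 genes, where 687 (4.93%) had an unadjusted p under 0.05 and DESeq2 called 0. The 1 gene was Trib2, a pseudokinase that destabilizes C/EBP-alpha. In ko mice Trib2 averaged 34.5 ± 10.4 CPM in pGM and 3.09 ± 0.540 CPM in HPC (log2 fold change 3.48), and the ko minus wt difference was 2.82 ± 0.38 on the log2 scale (adjusted p = 0.00095). In het mice the log2 fold change was 1.74. In wt it had 16.3, 17.7, 12.1 and 8.89 CPM in pGM, against 11.3, 6.81, 6.43 and 10.7 CPM in HPC, and was not called (log2 fold change 0.65 ± 0.25, adjusted p = 0.081) unless wt pGM 4 was left out (0.81, adjusted p = 0.0359).

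**Figure D5:**
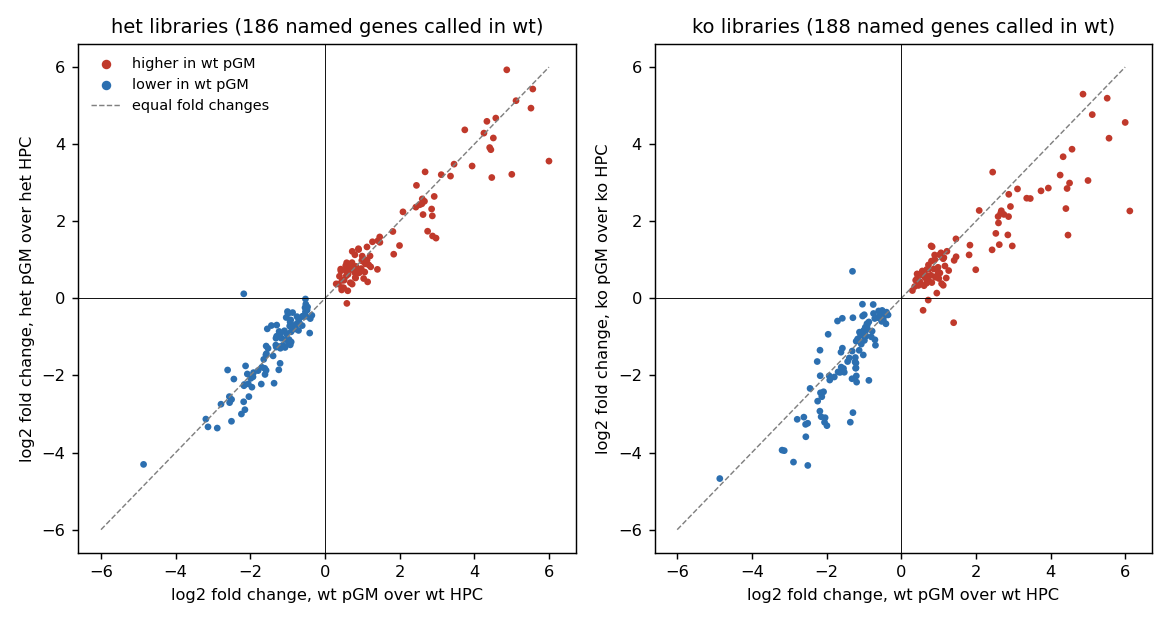
Log2 fold change of pGM over HPC in het (left) and ko (right) libraries against that in wt, for genes named by the selection rule and called in wt (186 tested in het and 188 in ko). In het 184 and in ko 184 have the same direction as in wt, and points cluster along the dashed line of equal fold changes.

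Kmt2c, the gene the series is about, had 39.8, 34.0, 37.1 and 40.4 CPM in wt pGM, against 38.4, 29.4, 56.3 and 41.0 CPM in wt HPC. The groups overlapped and the gene was not called (log2 fold change -0.13 ± 0.17, adjusted p = 0.631). It averaged 51.1 CPM in HSC, 39.2 in HPC, 36.6 in pGM and 19.6 in GMP. None of 19 tested genes of the H3K4 methyltransferase family and its partners was called in either direction by edgeR's test, with log2 fold changes from -0.40 to 0.55 and a median of 0.00. At an unadjusted p under 0.05 there were 2, and DESeq2 and limma voom called 1 each. In edgeR's test 2 were called higher without wt HPC 3, and 1 without wt HPC 4, with RLE scaling, with the replicate block or with the 16 wt libraries in 1 fit.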

How the data were processed

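RNA was measured by sequencing in sorted cells of 8-week-old mice. The authors deposited whole read counts per gene and library. The submitters' processing notes name STAR 3.0.4 for alignment, featureCounts 1.4.5 for counting, and Subread without a version. No source used here gives the genome build or the strand setting, so overlapping and antisense genes cannot be told apart, and close paralogs may share reads. The table holds 41388 mouse gene IDs, of which 40254 matched GENCODE M21 for symbols. 3 entries that are not mouse genes, at most 0.0040% of the reads of a library, were left out, and 0 columns stayed unassigned. The second table of the series, of PBS- and interleukin-treated mice, was not used.

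The quasi-likelihood F test of edgeR 4.0.16, run in R 4.3.3 with robust fits and TMM scaling, was applied to genes that passed filterByExpr (minimum count 10, minimum total 15). Calls are genes whose p, adjusted by Benjamini-Hochberg over all genes tested, was under 0.05. The wt, het and ko contrasts had a fit of 8 libraries each, and differences between genotypes 1 fit of 24. CPM are after TMM scaling within a fit, except for markers of other cells, which are scaled by the library's total alone. Errors are SD for CPM and SE for log2 fold changes, with n = 4 libraries a group. Same-numbered het libraries deviated together in all 4 pairs (r across genes 0.102 to 0.299), over the 0.1 taken as pairing. The differently numbered het pGM 1 and het HPC 2 had r of 0.104. Xist did not match in number 2, at 120.23 CPM in het HPC 2 and 3.77 CPM in het pGM 2. Whether the het numbers mark shared mice was not tested. Het values are still from the fit without a block, except where the block is named. Same-numbered ko libraries had r of 0.082 to 0.185, not all over 0.1, and ko was fitted without a block. In ko pGM and ko HPC, Y-linked reads were at most 0.56 CPM in replicates 1 and 4 and at least 143.55 CPM in replicates 2 and 3. Xist went the other way, so each ko group mixed both sexes by number.

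The 33 gene lists are described by counts and medians, without a set test. Named genes are the 15 higher and 15 lower called, protein-coding genes with the largest fold change that reach 20 CPM in the higher group without overlap, up to 4 members of each list and direction by adjusted p, a panel of 43 genes, and genes called in the ko minus wt difference. Predicted genes, Xist, Y-linked genes and receptor segments were left out of those named by size. The members, lists and rule were chosen with earlier results of these data known. Racgap1, Ddx60, Isg15, Oas3, Adgre1, Clnk and the eosinophil genes were named after their values were seen. So were the uncalled genes of the mast cell, basophil and eosinophil list, and markers of other cells outside the lists' named members. Alternatives were DESeq2 1.42.0, limma voom 3.58.1 with sample weights, RLE scaling, no filter on low counts, a replicate block, a covariate of Y-linked expression, larger fits and each library left out. The procedure was tested on simulated counts with known changes. Some members of the lists are counted but not reported by name here.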

Additional observations from a re-analysis of the deposited data

Results flagged for a closer look

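The 274 sets of 4 libraries examined were those of 137 genes reported by name here, in 2 groups. In 15 of them a single library stood apart from its group by Dixon's criterion, where chance gives about 1 in 20. Among genes higher in wt pGM, Cebpa was low in wt pGM 1 at 24.5 CPM, with the other 3 at 32.9 to 33.0 CPM, and low in wt HPC 4 at 14.1 CPM, with the others at 16.4 to 16.7 CPM. Csf1r was low in wt pGM 2 at 95.4 CPM, Il1rl1 in wt pGM 4 at 7.02 CPM and Itgb3 in wt pGM 2 at 10.8 CPM. Atp1b2 was high in wt HPC 4 at 0.958 CPM, and Pdgfrb in wt pGM 1 at 102 CPM. Among genes lower in wt pGM, Iigp1 was low in wt HPC 4 at 52.4 CPM and Slc2a3 low in wt HPC 1 at 106 CPM. Fah was high in wt HPC 1 at 31.0 CPM, Cdkn1c high in wt pGM 2 at 3.15 CPM and Myl10 high in wt pGM 2 at 36.7 CPM. Among genes not called, Kit was high in wt pGM 1 at 647 CPM, Notch1 high in wt HPC 3 at 95.9 CPM and Csf3r low in wt pGM 3 at 104 CPM.

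Trib2 differed between genotypes in its pGM over HPC change, with a ko minus wt difference of 2.82 on the log2 scale in edgeR's test of the difference. A human gene entry of the count table, which no comparison uses, had 266 reads in het pGM 1 and 0 to 11 reads in the other 47 untreated libraries.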

How the results depend on the processing

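The 16 alternatives of the wt comparison were set with earlier results of these data known. They were read for 137 genes reported by name here, 123 of them called in wt, and not for all 205 genes of the selection rule. None of these 123 changed direction under any alternative, and 110 kept their call under all. All 48 libraries in 1 fit ended 13 calls, the 16 wt libraries in 1 fit 6 and limma voom 1, while DESeq2, RLE scaling, no filter, the Y-linked covariate and the replicate block ended none. For all 48 libraries in 1 fit the wt count was 1806 (845 higher, 961 lower), and 3 sort markers in place of 5 and 6 glycolysis genes in place of 10 rose. Leaving out a library gave 2040 to 2851 wt calls (910 to 1434 higher, 1130 to 1488 lower). With the replicate number as a block 2531 were called (1140 higher, 1391 lower), and same-numbered wt libraries did not reach the correlation of 0.1 taken as pairing (r across genes -0.024 to 0.092). A shared number still marks some likeness: Xist was at 21.54 to 47.52 CPM in wt pGM 2 and 3 and 43.3 to 55.08 CPM in wt HPC 2 and 3, and below 1 CPM in replicates 1 and 4 of both groups, and summed globin reads were highest in replicate 4 of both. The block ended no call of the 123 genes, made Pf4 called (-0.82, adjusted p = 0.0366), and called 7 MHC class II genes lower in place of 3. RLE scaling moved the median of all genes by 0.02. Of uncalled genes, Slamf1 (0.25) turned to -0.81 with the Y-linked covariate, -0.15 without wt HPC 1, -0.14 without wt HPC 3 and -1.48 without wt pGM 2, over a range of -1.48 to 2.08 with 1 library left out. Il7r (-0.08) turned to 0.13 without wt HPC 3 and 0.03 without wt pGM 4, over -0.22 to 0.13, and Kmt2c (-0.13) to 0.07 without wt HPC 3, over -0.26 to 0.07. In het, DESeq2 called 2255 (992 higher), limma voom 2846 (1276 higher, 1570 lower), the replicate block 1881 (Cebpa among them), and leaving out a library gave 731 to 2046 (275 to 966 higher, 456 to 1080 lower). In ko, limma voom called 2945 (1429 higher), the replicate block 1862, and leaving out a library gave 1267 to 2443 (480 to 1256 higher). For the ko minus wt difference DESeq2 called 18 (7 higher, 11 lower), the replicate block by genotype and number 3, all higher, and leaving out a library 1 to 3 (1 to 3 higher, 0 to 1 lower). The cause of these changes was not tested. Depth was 14249733 to 17830780 reads a library, and 4 libraries a group limit all calls.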
